A study of Mus musculus with 12 samples.

Results

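Metallothioneins and zinc transporters were examined in primary OLs, the myelin-forming oligodendrocytes of the mouse brain, after treatment with siEgr2. The 10 genes were chosen by their symbols among the 56860 named genes of the count table. They are the metallothionein genes Mt1, Mt2 and Mt3, the transcription factor gene Mtf1, the exporter genes Slc30a1 and Slc30a10, and the importer genes Slc39a8, Slc39a10, Slc39a12 and Slc39a14. All 10 had enough counts to be among the 16600 genes tested.

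RNA-seq was performed on 12 libraries, 6 of the siEgr2 group and 6 of the siNC group. The cells were O4+ immature OLs that the study isolated from the cortex of newborn C57BL/6J mice (P6 to P7, both groups) with magnetic beads and differentiated in culture with triiodothyronine and ciliary neurotrophic factor. The labels give the medial prefrontal cortex as the tissue. The siEgr2 group received an interfering RNA against Egr2, the gene of a zinc finger transcription factor of myelinating cells, the siNC group received a scrambled control, and RNA was taken 48 h later. The methods also call the reagent an interference plasmid, and no source used here says how many animals were pooled or whether the libraries of a group came from separate cultures, so the p-values below measure the spread between these libraries.

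Cells keep most of their zinc bound to protein. Metallothioneins are small cysteine-rich proteins that bind zinc and copper, and MTF1 is the zinc-sensing transcription factor that binds metal response elements in the promoters of metallothionein genes and of Slc30a1 when zinc rises. Transporters of the SLC30 family carry zinc out of the cytosol, those of the SLC39 family carry zinc into it, and in the brain astrocytes are a main site of metallothionein expression.

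The 3 metallothionein genes lie on the forward strand of chromosome 8, and their promoters are shown with the matches to the core of the metal response element, which MTF1 binds. Each line gives the 250 bases before the RefSeq start of transcription (mouse build GRCm38.p6, forward strand), with each match to TGCACNC or TGCGCNC, on either strand, in capitals.
Mt1: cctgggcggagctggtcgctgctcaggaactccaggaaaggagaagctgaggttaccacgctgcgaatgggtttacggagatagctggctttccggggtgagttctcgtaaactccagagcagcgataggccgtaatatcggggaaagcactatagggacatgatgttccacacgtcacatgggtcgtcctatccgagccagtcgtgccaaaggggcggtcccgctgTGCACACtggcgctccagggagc
Mt2: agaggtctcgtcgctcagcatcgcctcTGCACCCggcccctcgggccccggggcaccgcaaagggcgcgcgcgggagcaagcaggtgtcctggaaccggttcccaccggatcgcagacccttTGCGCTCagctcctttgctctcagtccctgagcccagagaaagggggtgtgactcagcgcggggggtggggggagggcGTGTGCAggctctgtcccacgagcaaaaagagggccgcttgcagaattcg
Mt3: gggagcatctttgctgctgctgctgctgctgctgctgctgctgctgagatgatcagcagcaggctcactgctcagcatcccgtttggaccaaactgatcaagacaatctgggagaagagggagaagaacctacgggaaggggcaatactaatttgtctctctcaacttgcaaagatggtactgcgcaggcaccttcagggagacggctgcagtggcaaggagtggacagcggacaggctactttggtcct

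These windows lie at chr8:94178839-94179088 for Mt1, at chr8:94172368-94172617 for Mt2 and at chr8:94152357-94152606 for Mt3. The Mt2 window held 3 matches, TGCACCC at -223 to -217, TGCGCTC at -128 to -122, and on the reverse strand GTGTGCA as read forward at -50 to -44, counted from the start site. The Mt1 window held 1 match, TGCACAC at -23 to -17, and the Mt3 window held 0. These counts depend on the annotated start. With the 50 bases after the RefSeq start included, Mt1 held 3 matches, Mt2 4 and Mt3 1, beside 25.7% of all windows of 300 bases with at least 1. GENCODE places another start of Mt1 122 bases after that of RefSeq, and 5 matches lay between the first base shown and that start. For Mt2 it places other starts 46 and 242 bases after that of RefSeq, with 4 and 7 matches counted likewise, so the printed windows give no ranking of Mt1 against Mt2. Of 32851 mouse promoter windows of the same length, 21.4% held at least 1 match and 1.26% at least 3. Slc30a10 held 3 matches, of which the pair farthest from the start site overlap on opposite strands. Slc30a1 and Slc39a8 held 1 match each, Slc39a8 in only 1 of its 2 windows, and the windows of Mtf1, Slc39a10 and Slc39a12 held 0. The binding site of EGR factors, searched as GCGTGGGCG and GCGGGGGCG on both strands, matched in 0 of the 9 genes with a window and in 3.06% of all windows. A match describes the letters of the window, and binding was not measured.

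The groups differed in more than the treatment. Total counts were 28682946 to 39383014 per library in the siNC group, against 8034251 to 16683677 in the siEgr2 group, and the 18S ribosomal RNA gene Rn18s-rs5 took 0.142% to 1.05% of the counts in the siNC group, against 10.5% to 16.5% in the siEgr2 group. Egr2 itself ranged from 3.89 to 7.06 CPM (median 5.19) in the siNC group and from 2.22 to 4.86 CPM (median 3.93) in the siEgr2 group, where CPM is the count scaled to a common library total with TMM factors. The ranges overlapped, and with a log2 fold change of -0.51 (SE 0.21) Egr2 had an adjusted p of 0.0981 (edgeR, quasi-likelihood, Benjamini-Hochberg; all adjusted p-values of fold changes below were obtained in this way). A gene was called where its adjusted p was under 0.05 and its log2 fold change, siEgr2 over siNC, was over 0.5 in size. Of the defining markers of OLs, the myelin gene Mbp stood at 1830.0 ± 134 CPM in the siNC group and 1509.8 ± 53.0 CPM in the siEgr2 group (SD, n = 6 each), Cnp at 1629.9 ± 98.2 and 1517 ± 39.6 CPM, Mag at 478 ± 23.7 and 465 ± 30.3 CPM, and Mog at 30.4 ± 1.24 and 26.3 ± 2.89 CPM, and none of the 4 was called. By adjusted p alone Mbp was lower (log2 fold change -0.28, SE 0.043, adjusted p = 0.000228, edgeR). The 10 astrocyte markers were measured in every library as well, with a sum of 8174 to 8877 CPM in the siNC group.

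Among the 10 genes, 5 were called, all with lower levels in the siEgr2 group: Mt1, Mt2, Mt3, Slc39a8 and Slc39a12. Over all tested genes, 7.72% were called, 5.08% lower and 2.63% higher. The median log2 fold change of the 10 genes was -0.36, and that of all tested genes was 0.0046. The 10 genes were chosen with earlier results of these data known, so these values describe them and do not test them as a set. Slc39a8 had enough counts to be tested through the siNC libraries, in which it was high. By adjusted p alone, Slc39a14 joined the 5, compared with 19.9% of all tested genes, 11.3% lower and 8.57% higher. The groups did not overlap for 3 of the genes, the metallothioneins, against 11.2% of all tested genes, 7% with the siEgr2 group below and 4.15% with it above. With every library thinned to the smallest total, 4 of the 5 were called and Slc39a8 no longer had enough counts to be tested, and without the structural RNA genes all 5 were called. The ribosomal RNA share and the treatment separate the libraries in the same way and cannot be told apart. In bulk RNA, fewer cells of a type and less RNA per cell cannot be told apart.

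**Figure D1:**
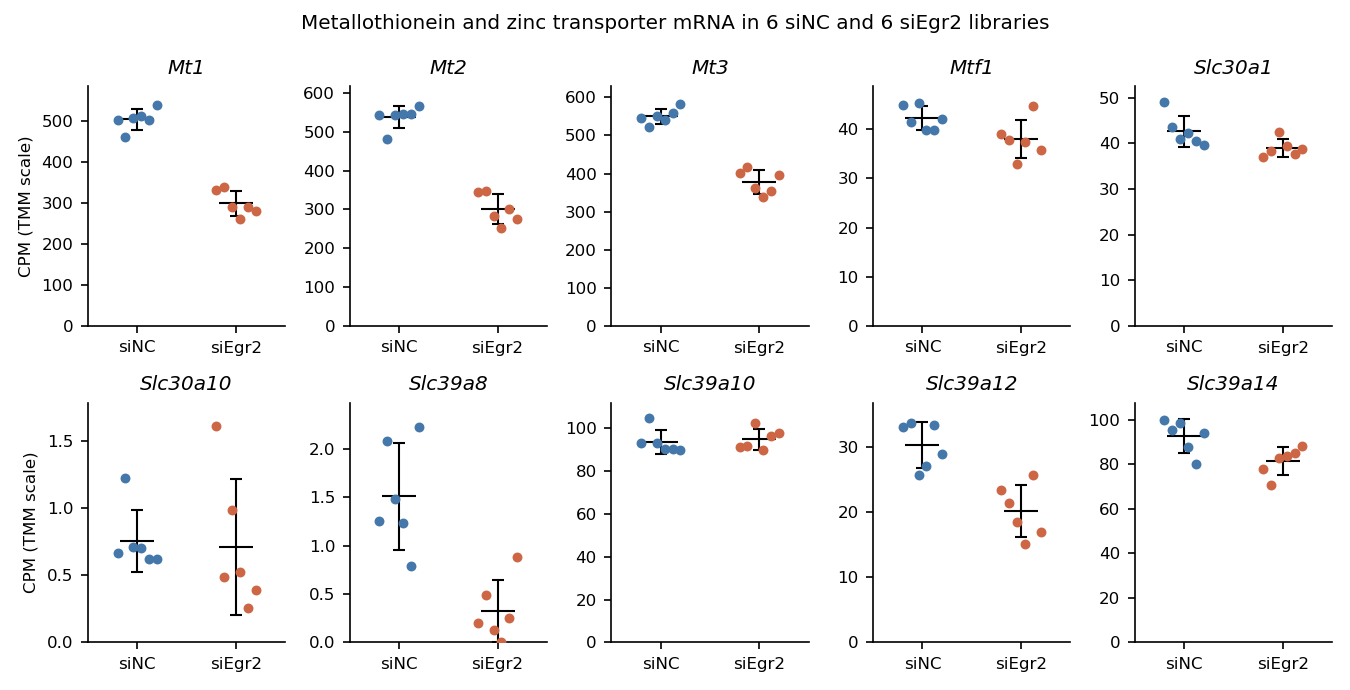
Level of the 10 genes in each library as CPM on the TMM scale (vertical axes from 0, each panel with its own scale), for the siNC group (blue) and the siEgr2 group (orange); points are libraries, lines the mean and bars the SD (n = 6 each). The points of Mt1, Mt2 and Mt3 are separated between the groups, with siNC values of 459.8 CPM and above for Mt1 and siEgr2 values of 339 CPM and below, while those of the other genes overlap.

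The metallothioneins were the highest of the 10 genes. Compared per length, in the siNC group Mt2 stood at 1053 ± 56.5 CPM per kb (SD, n = 6), Mt3 at 1026 ± 37.6 and Mt1 at 917 ± 46.1 CPM per kb, with ranges that overlapped between neighbours in this order. Next came the importers Slc39a14 at 18.8 ± 1.52 and Slc39a10 at 17.0 ± 1.03 CPM per kb, which overlapped with each other. Slc39a12 at 11.3 ± 1.30, Slc30a1 at 8.15 ± 0.646, Mtf1 at 5.54 ± 0.318, Slc39a8 at 0.427 ± 0.155 and Slc30a10 at 0.130 ± 0.0395 CPM per kb followed, each apart from the next. In the siEgr2 group Mt3 came first, at 705 ± 58.5 CPM per kb, with Mt2 at 589 ± 76.2 and Mt1 at 544 ± 55.0 CPM per kb, again with overlap between neighbours. Together the 3 metallothioneins took 0.157% to 0.179% of all counts in the siNC libraries and 0.0773% to 0.103% in the siEgr2 libraries.

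Mt1 encodes a metallothionein found in most tissues and induced by zinc and by glucocorticoids. It lies on chromosome 8 of GRCm38 from 94179082 to 94180327. In the siNC group Mt1 ranged from 459.8 to 538 CPM, with a median of 506, and in the siEgr2 group from 262 to 339 CPM, with a median of 290.2. The groups were separate, all siEgr2 libraries lying below the lowest siNC library. The mean went from 504 ± 25.3 to 299 ± 30.2 CPM (SD, n = 6 each), and Mt1 fell by 0.75 on the log2 scale (SE 0.058, adjusted p = 2.94e-07, edgeR).

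Mt2, from 94172664 to 94173568 on the same chromosome, encodes a metallothionein that is induced together with Mt1. Its level ranged from 482 to 567 CPM (median 545) in the siNC group and from 253 to 349 CPM (median 292) in the siEgr2 group. Here too the ranges were apart, and the lowest siNC library, replicate 2, was still above all siEgr2 libraries. Mt2 fell from 538 ± 28.9 to 301 ± 38.9 CPM, by 0.84 on the log2 scale (SE 0.074, adjusted p = 2.73e-06, edgeR). The antisense gene Gm45774 overlaps Mt2, shares 45.5% of the 50-base stretches of its transcript (210 of 462) and went from 3.94 to 2.14 CPM (log2 fold change -0.86, SE 0.27, adjusted p = 0.0347, edgeR). Whether the counting used strand is not stated, so reads of the pair cannot be told apart, and Mt1 and Mt3 shared 0 such stretches with other genes.

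Mt3, from 94152607 to 94154146, encodes the brain metallothionein, first known as a growth inhibitory factor. Mt3 ranged from 522 to 582 CPM (median 547) in the siNC group and from 337 to 418 CPM (median 379) in the siEgr2 group. The groups did not overlap here either. Mt3 fell from 549.7 ± 20.2 to 378 ± 31.4 CPM, by 0.54 on the log2 scale (SE 0.049, adjusted p = 1.12e-06, edgeR), and its 95% confidence interval, -0.64 to -0.44, includes the fold change threshold. Mt4, the fourth gene of the cluster and known from stratified epithelium, had 0 counts in all 12 libraries, where 3 counts correspond to 0.0718 to 0.384 CPM per library.

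The metallothioneins did not fall by the same amount. Within each library, which leaves scaling out, Mt3 stood over Mt1 at a log2 ratio of counts of 0.082 to 0.18 in the siNC group and of 0.28 to 0.501 in the siEgr2 group. All siEgr2 ratios were above all siNC ratios. The difference was 0.21 (exact permutation test, two-sided, p = 0.00216, which is the lowest value possible with 6 libraries in each group, and adjusted p = 0.00464 over 15 ratios). The ratio of Mt3 to Mt2 was higher by 0.30 and that of Mt1 to Mt2 by 0.088, again without overlap and with the same p and adjusted p in the exact permutation test. As a share of the summed counts of the 3 genes, Mt3 took 34.6% ± 0.613 (SD, n = 6) in the siNC group and 38.7% ± 1.68 in the siEgr2 group, while Mt2 took 33.8% ± 0.462 and 30.7% ± 1.29. The share of Mt1 was 31.6% ± 0.307 and 30.5% ± 0.560.

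Astrocyte markers moved in the same direction. Of the 10 markers, 5 were called lower (Gfap, Aqp4, Aldh1l1, Slc1a3 and Slc1a2) and 0 higher by edgeR, beside 5.08% and 2.63% of all tested genes, and DESeq2 and limma-voom each called 6 lower. Their median log2 fold change was -0.58, and their summed level was 5202 to 5909 CPM in the siEgr2 group. All 10 were above 0 in both groups. Set against the summed counts of these markers in the same library, Mt1 differed between the groups by -0.15 on the log2 scale (exact permutation test, p = 0.0519, adjusted p = 0.0599), and the ranges overlapped. Without siEgr2 replicate 1, or without siEgr2 replicate 2, the difference was -0.18 with an adjusted p of 0.0275 (exact permutation test). Mt2 over the markers was lower in the siEgr2 group (difference -0.24, adjusted p = 0.0148, exact permutation test), also with overlapping ranges. With groups swapped only within replicate numbers, the adjusted p for Mt2 was 0.117 (exact permutation test), although libraries with the same number did not deviate together. Mt3 over the markers differed by 0.063 (adjusted p = 0.239, exact permutation test). That value was 0.097 (adjusted p = 0.0475) without siEgr2 replicate 4, and 0.12 (adjusted p = 0.0325) with Gfap, the marker with the most counts, left out of the sum, a choice made after the data were seen. The part of cell composition in these differences cannot be told apart from a change within cells.

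The genes whose profiles over the 12 libraries came nearest to those of the metallothioneins were found among 12392 genes outside the 10 whose log2 CPM averaged 2 or more by the mean absolute difference of log2 CPM centred on each gene's mean. For Mt1 these were Mlc1, an astrocyte membrane protein gene, at 0.045 log2 units, Ezr, the gene of the membrane linker ezrin, at 0.050, and Ppp1r3c, a gene of glycogen synthesis, at 0.054. For Mt2 they were Mlc1 at 0.069, Pdpn, the gene of the membrane glycoprotein podoplanin, at 0.072 and S100a11, a calcium-binding protein gene, at 0.074. Among the 10 zinc genes, Mt1 and Mt2 were the nearest pair, at 0.046, which lies between Mlc1 and Ezr in the order for Mt1 and before Mlc1 in the order for Mt2. Mlc1, chosen for this likeness, had mean levels of 499.7 CPM in the siNC libraries and 289.8 CPM in those of siEgr2, which is a description and not a test.

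**Figure D2:**
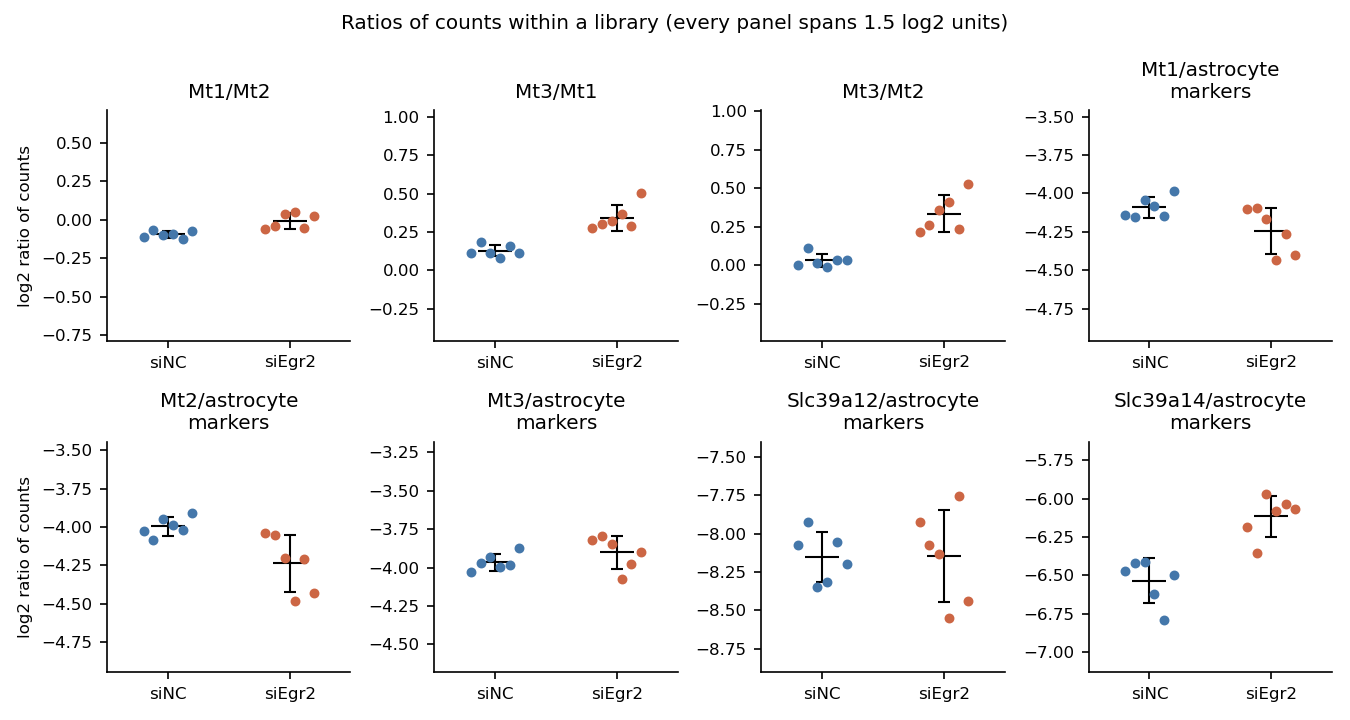
Log2 ratio of counts within each library for pairs of genes and for genes over the summed astrocyte markers (each panel spans 1.5 log2 units); points are the siNC (blue) and siEgr2 (orange) libraries, lines the mean and bars the SD (n = 6 each). The Mt3/Mt1 ratios of the siEgr2 group, 0.28 and above, all lie over those of the siNC group, 0.18 and below, and the siNC range of Slc39a12 over the markers, -8.35 to -7.93, lies within that of the siEgr2 group.

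Genes around the metallothionein cluster were not called, apart from the antisense gene. The cluster from Mt4 to Mt1 spans 43131 bases, and 4 other genes within 100000 bases of it were tested. Over all tested genes 7.72% were called, so the lack of a call among 4 genes is no result about this region. Log2 fold changes were -0.088 (SE 0.073) for Ogfod1, an oxygenase gene, and -0.21 (SE 0.097, adjusted p = 0.141, edgeR) for Bbs2, a gene of the primary cilium. They were 0.070 (SE 0.072) for Nup93, a gene of the nuclear pore, and 0.0043 (SE 0.099) for the pseudogene Rpl10-ps5.

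**Figure D3:**
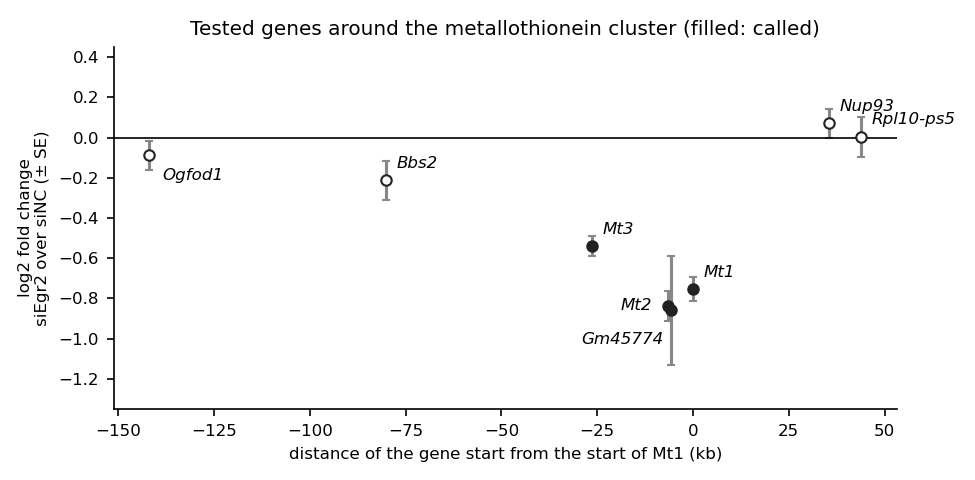
Log2 fold change (siEgr2 over siNC, vertical axis, bars are SE) of the tested genes around the metallothionein cluster against the distance of their start from that of Mt1 in kb (horizontal axis); filled points were called. Mt1, Mt2, Mt3 and the antisense Gm45774 lie between -0.54 and -0.86, and the 4 neighbours between -0.21 and 0.070.

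Mtf1, which encodes the zinc sensor and lies on chromosome 4 from 124802104 to 124849800, was not called. Its level ranged from 39.8 to 45.4 CPM (median 41.9) in the siNC group and from 33.0 to 44.8 CPM (median 37.7) in the siEgr2 group, with overlap. The means were 42.3 ± 2.42 and 38.0 ± 3.94 CPM, a log2 fold change of -0.16 (SE 0.069, adjusted p = 0.128, edgeR). Within a library, Mt1 over Mtf1 was lower in the siEgr2 group by a log2 difference of -0.60, Mt2 over Mtf1 by -0.69 and Mt3 over Mtf1 by -0.39. Each of these ratios separated the groups (exact permutation test, adjusted p = 0.00464). Mtf1 changed less than the metallothioneins, so these ratios largely restate the metallothionein fold changes and are no evidence apart from those.

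Slc30a1 encodes the zinc exporter of the plasma membrane and is itself a gene regulated by MTF1. It lies on chromosome 1 from 191906767 to 191913247 and ranged from 39.7 to 49.0 CPM (median 41.6) in the siNC group and from 37.1 to 42.6 CPM (median 38.6) in the siEgr2 group, and the ranges overlapped. The log2 fold change was -0.13 (SE 0.061, 95% confidence interval -0.26 to 0.00029, adjusted p = 0.157, edgeR), so a difference as large as those of the metallothioneins lies outside the interval. Slc30a10, an exporter known mainly for manganese, had only 19 to 40 counts in the siNC libraries and 2 to 24 counts in those treated with siEgr2, at 0.758 ± 0.230 and 0.710 ± 0.507 CPM. Its log2 fold change of -0.029 had a 95% confidence interval from -0.91 to 0.86 (adjusted p = 0.974, edgeR), its sign changed when single libraries were left out, and a difference was not detectable at this depth. Mtf1, Slc30a1 and Slc30a10 each overlap a gene on the other strand, with which 8.86%, 8.08% and 8.36% of their 50-base stretches were shared.

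Slc39a8 encodes ZIP8, an importer of zinc, manganese and iron, and showed the largest fold change of the 10 genes at the second lowest level per length. In the siNC libraries it had 43, 68, 46, 42, 24 and 93 counts in the order of their replicate numbers, and in the siEgr2 libraries 3, 6, 2, 0, 2 and 9 counts. As CPM this was 0.785 to 2.23 (median 1.37) in the siNC group and 0 to 0.877 (median 0.229) in the siEgr2 group. The highest siEgr2 library, replicate 6, lay above the lowest siNC library, replicate 5, and the other siEgr2 libraries lay below all siNC libraries. Slc39a8 fell by 2.29 on the log2 scale (SE 0.53, 95% confidence interval -3.41 to -1.16, adjusted p = 0.00545, edgeR). Slc39a8 passed the filter on low counts through the siNC libraries, in which it was high, so its place among the tested genes favoured a call in this direction. It was also called lower without a filter. These values rest on 22 counts in all in the siEgr2 group and 316 in the siNC group. Slc39a8 lies on chromosome 3 from 135825279 to 135888572.

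Set against other transporters of the same library, Slc39a8 differed by -2.37 over Slc39a14, -2.58 over Slc39a10 and -2.43 over Slc30a1 on the log2 scale (exact permutation test, adjusted p = 0.00649 for each), and the ranges overlapped through siEgr2 replicate 6 and siNC replicate 5 in each. Over the summed astrocyte markers it differed by -1.95 (adjusted p = 0.0189, exact permutation test). These sizes rest on the pseudocount of 0.5 counts, since siEgr2 replicate 4 had 0 counts of Slc39a8, and they are no evidence apart from its fold change. Without that library the differences were -1.82, -2.05, -1.88 and -1.41. The nearest profiles to that of Slc39a8, whose own mean log2 CPM of 0.23 lies below the limit of 2 set for these candidates, were Rgs8, a regulator of G protein signalling, at 0.54 log2 units, Tgm1, a transglutaminase gene, at 0.63 and Gbp5, an interferon-induced gene, at 0.63.

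Slc39a12 encodes ZIP12, a zinc importer of the nervous system, and lies on chromosome 2 from 14388316 to 14494977. It ranged from 25.7 to 33.6 CPM (median 31.0) in the siNC group and from 15.1 to 25.7 CPM (median 19.9) in the siEgr2 group. The overlap came from siEgr2 replicate 5 alone, which reached the level of siNC replicate 3. Slc39a12 fell from 30.3 ± 3.49 to 20.2 ± 4.03 CPM, by 0.59 on the log2 scale (SE 0.12, adjusted p = 0.00202, edgeR). Its 95% confidence interval, -0.84 to -0.34, includes the fold change threshold. Against the astrocyte markers of the same library, the log2 ratio of Slc39a12 was -8.15 ± 0.16 in the siNC group and -8.15 ± 0.301 in the siEgr2 group, a difference of 0.0057 (adjusted p = 0.976, exact permutation test) whose sign changed when single libraries were left out.

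Slc39a14, on chromosome 14 from 70303469 to 70351425, encodes ZIP14, which like ZIP8 carries zinc, manganese and iron. It ranged from 80.3 to 99.9 CPM (median 94.8) in the siNC group and from 70.8 to 88.0 CPM (median 83.3) in the siEgr2 group, with overlap. The log2 fold change was -0.19 (SE 0.063, adjusted p = 0.0455, edgeR), below the fold change threshold in size, and its adjusted p was under 0.05 in 9 of 22 alternative analyses, with a range of 0.000311 to 0.101. Over the astrocyte markers, Slc39a14 was higher in the siEgr2 group by 0.42 on the log2 scale without overlap (adjusted p = 0.00464, exact permutation test). The summed markers were themselves lower in that group, so this ratio is no evidence apart from the fold changes. Slc39a10, which encodes ZIP10 and is repressed by MTF1, had mean levels close to each other, 93.7 ± 5.69 and 94.96 ± 4.82 CPM. Its log2 fold change was 0.020 (SE 0.050, 95% confidence interval -0.086 to 0.12, adjusted p = 0.828, edgeR), with a sign that changed to -0.16 when library size alone was used for scaling.

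**Figure D4:**
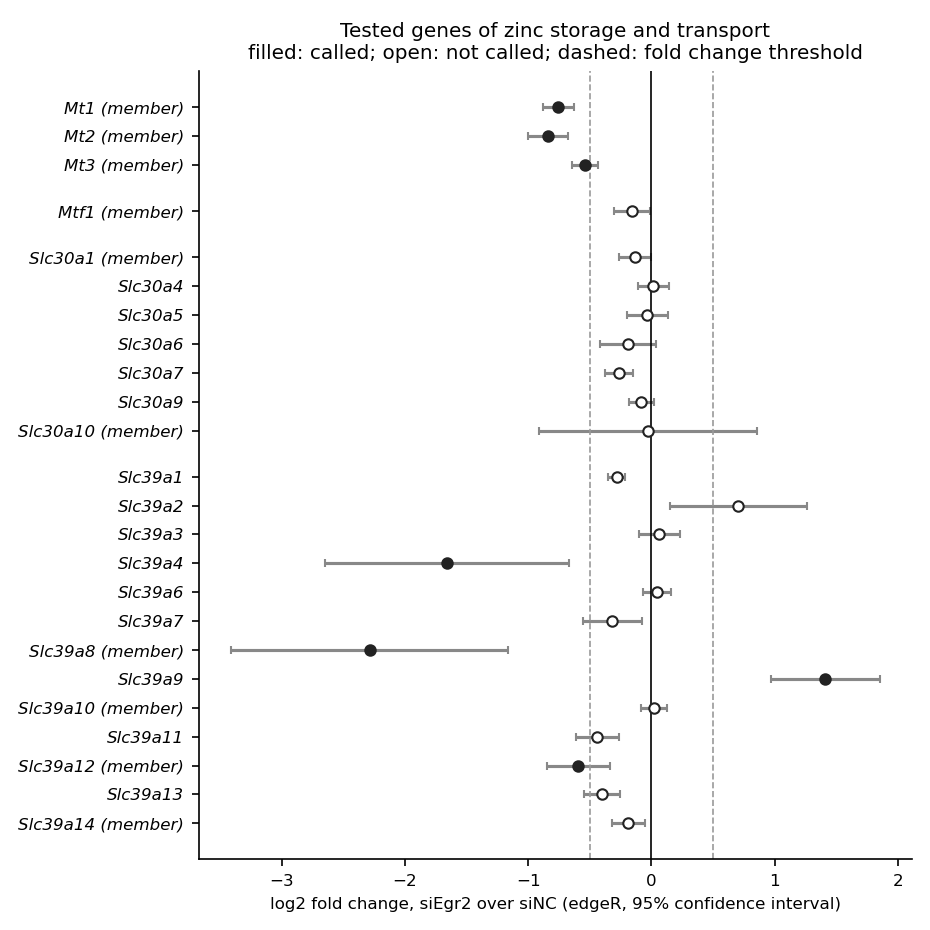
Log2 fold change (siEgr2 over siNC, horizontal axis) of the tested metallothionein, Mtf1, SLC30 and SLC39 genes with 95% confidence intervals; filled points were called and dashed lines mark the fold change threshold of 0.5. Mt1, Mt2, Mt3, Slc39a4, Slc39a8 and Slc39a12 are called on the left and Slc39a9, at 1.41, on the right.

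Of the remaining zinc genes, 14 of 19 were tested, 1 was called higher and 1 lower, beside 2.63% and 5.08% of all tested genes, and their median log2 fold change was -0.14. Counts of 1 among 14 genes are no result about these genes as a list. Slc30a2, Slc30a8 and Slc39a5 had 0 counts in every library, and Slc30a3, the exporter of synaptic vesicles, had counts in 1 library. In the SLC30 family 0 of 7 tested genes were called by edgeR, and 0 by DESeq2 and by limma-voom. At an unadjusted p under 0.05 there was 1, Slc30a7, a Golgi transporter gene, at -0.26 (SE 0.055, adjusted p = 0.00276, edgeR). By adjusted p alone 1 of the 7 was lower, this same gene, beside 11.3% of all tested genes. The exporter genes with the most counts were Slc30a9 at 129 ± 5.07 and 122 ± 8.08 CPM and Slc30a4 at 85.7 ± 5.89 and 86.5 ± 6.19 CPM in the siNC and siEgr2 groups.

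In the SLC39 family, 13 of 14 genes were tested, 1 was called higher and 3 lower (Slc39a8, Slc39a12 and Slc39a4) by edgeR, beside 2.63% and 5.08% of all tested genes, and DESeq2 called 2 higher. By adjusted p alone 1 was higher and 7 were lower, beside 8.57% and 11.3% of all tested genes. Slc39a4, the intestinal zinc importer, was low throughout, at 2.60 ± 0.588 CPM in the siNC group and 0.852 ± 0.677 CPM in the siEgr2 group (log2 fold change -1.66, SE 0.47, adjusted p = 0.0194, edgeR). Like Slc39a8, it passed the filter through the siNC libraries, in which it was higher, and was also called lower without a filter. Slc39a9, a transporter of the Golgi and plasma membrane, ranged from 24.9 to 30.6 CPM in the siNC group and from 33.9 to 92.9 CPM in the siEgr2 group, where replicate 4 lay at 33.9 CPM and the others at 81.0 CPM or above. Slc39a9 rose by 1.41 on the log2 scale (SE 0.20, adjusted p = 0.000441, edgeR), and by 1.56 without siEgr2 replicate 4. It overlaps Erh and a pseudogene on the other strand. The importer gene with the most counts, Slc39a1, went from 259 ± 8.20 to 214 ± 3.69 CPM (log2 fold change -0.28, SE 0.032, adjusted p = 1.16e-05, edgeR) without overlap and without reaching the fold change threshold. Slc39a6 stood at 99.1 ± 6.53 and 102 ± 6.84 CPM.

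Metallothioneins are among the genes regulated by MTF1, and a list of these was counted next. Of its 10 genes, 2 were called lower, Mt1 and Mt2, and 0 higher, with a median of -0.23, beside 5.08% and 2.63% of all tested genes. The list includes Slc39a10, which MTF1 represses, so neither the counts nor the median has a direction in terms of MTF1. Outside the 10 zinc genes, 0 of 5 were called by edgeR, 1 by DESeq2 and 1 by limma-voom. At an unadjusted p under 0.05 there were 4, with no share of all tested genes given at that cut. By adjusted p alone 1 was higher and 2 were lower, beside 8.57% and 11.3% of all tested genes. The values of these 5 genes are given although they were picked for mention after they were seen. Gclc, a glutathione synthesis gene, had a log2 fold change of -0.48 (adjusted p = 6.52e-06, edgeR) and Csrp1 one of -0.33 (adjusted p = 3.28e-05). Selenoh, a selenoprotein gene, had one of 0.50 (SE 0.076, adjusted p = 0.000209, edgeR), which before rounding is just under the threshold, and was called higher in 10 of 22 alternative analyses. Selenow stood at -0.057 and Ndrg1 at -0.34 (adjusted p = 0.0528).

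Metallothioneins also bind copper and respond to glucocorticoids and to oxidative stress, and genes of these systems were counted alongside. Of 12 copper genes, 1 was called lower and 0 higher, beside 7.72% of all tested genes called in either direction, and the median was -0.0070. The gene called was Cp, the gene of the copper oxidase ceruloplasmin that astrocytes make, which fell from 342 ± 9.49 to 149 ± 7.03 CPM, by 1.20 on the log2 scale (SE 0.038, adjusted p = 1.23e-11, edgeR), while the copper importer gene Slc31a1 stood at -0.14 (SE 0.043). Of 7 manganese genes, 1 was called lower, Slc39a8, and 0 higher, with a median of -0.19. Atp2c1, a Golgi calcium and manganese pump gene, stood at 0.069 (SE 0.040). Of 10 glucocorticoid-responsive genes, 1 was called lower, Pdk4 (log2 fold change -0.75, SE 0.15, adjusted p = 0.00228, edgeR), and 0 higher, with a median of -0.087. Counts of 1 in lists of this size lie near the share of all tested genes and are no result about the lists. Sgk1 and Klf9, those with the most counts, had log2 fold changes of -0.082 (SE 0.046) and -0.025 (SE 0.051).

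Genes regulated by Nrf2, the transcription factor of the oxidative stress response, included several that fell. Of 12 tested, 6 were called lower and 0 higher, 11 had an adjusted p under 0.05, and the median was -0.51, beside 5.08% of all tested genes called lower and 19.9% with an adjusted p under 0.05. The cystine transporter gene Slc7a11 fell from 204 ± 23.0 to 93.2 ± 12.1 CPM, by 1.13 on the log2 scale (SE 0.090, adjusted p = 8.99e-07, edgeR). The others were Osgin1 (-1.07), Srxn1 (-0.67), Me1 (-0.60), Nqo1 (-0.58) and Hmox1 (-0.55), the last the gene of heme oxygenase. Txnrd1 and Sqstm1, those with the most counts, stood at -0.204 and -0.198. Gclc is on this list and on that of MTF1.

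**Figure D5:**
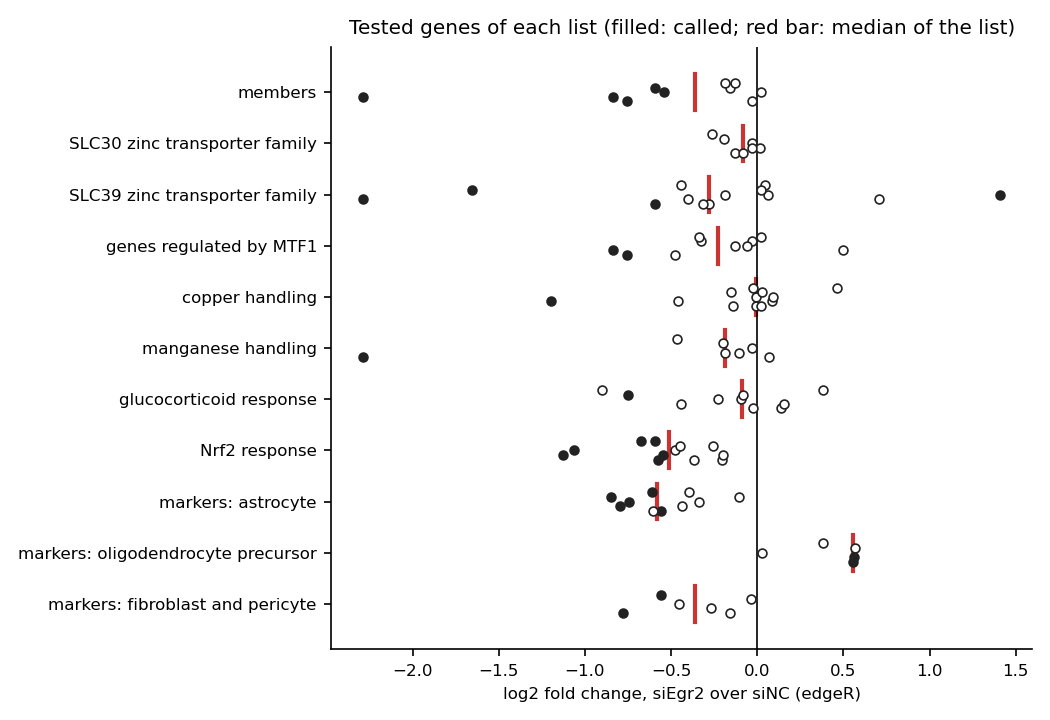
Log2 fold change (siEgr2 over siNC, horizontal axis) of every tested gene of each list (points, filled where called), with the median of each list as a red bar. The medians are -0.36 for the 10 zinc genes, -0.51 for the Nrf2 list and -0.58 for astrocyte markers.

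Markers of the other cell types were counted in the same way, and the shares of all tested genes called were again 2.63% higher and 5.08% lower. Of 5 markers of OL precursors 2 were called higher, Pdgfra and Cspg4, with a sum of 1671 to 1952 CPM in the siNC group and 2249 to 2435 CPM in the siEgr2 group. Of 10 microglia markers 4 were tested, 0 were called by edgeR, DESeq2 or limma-voom and 0 had an unadjusted p under 0.05, their sum was 25.2 to 31.1 CPM and 21.6 to 32.2 CPM, and Aif1 and Itgam were at 0 in every library. Neuronal markers summed to 43.8 to 50.9 and 42.8 to 45.9 CPM (1 of 8 called lower, Stmn2), endothelial markers to 26.1 to 35.4 and 28.2 to 38.0 CPM with Cldn5 at 0 (1 of 3 called lower, Flt1), ependymal markers to 64.1 to 83.6 and 49.0 to 61.5 CPM (0 of 4 called by edgeR, DESeq2 or limma-voom, 2 with an unadjusted p under 0.05), and fibroblast and pericyte markers to 590 to 1007 and 597 to 741 CPM (2 of 6 called lower, Pdgfrb and Rgs5). Flt1 had 3 to 22 counts per siEgr2 library against 45 to 97 in the siNC libraries, through which it passed the filter on low counts. The part of these cell types in the differences of the zinc genes was not tested. No share of all tested genes is given at an unadjusted p under 0.05, so counts at that cut are no result about the lists.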

How the data were processed

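Total RNA of 12 libraries of differentiated OLs was sequenced on the Illumina platform with reads of 50 bases. The authors deposited raw counts of reads per gene symbol in a single table, without normalization. The submitters' processing notes name the build mm10. The aligner, the counting program, its treatment of strand and the selection of RNA are not given in the sources used here. The table also held 1 blank entry, with 0 counts, which was left out.

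From the deposited counts, genes with few counts were removed (filterByExpr), TMM factors were computed, and the groups were compared in R 4.3.3 with edgeR 4.0.16 (glmQLFit with robust estimation, glmQLFTest), with Benjamini-Hochberg adjustment over the 16600 tested genes and no covariate. Calls required an adjusted p under 0.05 together with an absolute log2 fold change over 0.5, the thresholds of the study. Ratios of counts within a library, with 0.5 added to each count, were compared by a two-sided exact permutation test over all 924 assignments of the libraries, adjusted over 15 ratios. The procedure was tested on simulated data. Groups and replicate numbers came from the library titles. Libraries with the same number did not deviate together, and the numbers were not used to pair them.

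The genes, lists and tests were chosen with earlier results of these data known. The text names the 10 genes, Egr2, every called gene and the 2 genes of highest mean log2 CPM of each list of related genes other than cell type markers, and the 3 genes nearest in profile to Mt1, Mt2 and Slc39a8. Any other gene was named after its values were seen. Coordinates and transcript lengths came from GENCODE M21 (GRCm38) and promoters from RefSeq (GRCm38.p6), where 9 of the 10 genes had an entry, and the bases of Mt1 and Mt2 after the RefSeq window from GENCODE transcripts. The alternatives were other scaling factors, DESeq2 1.42.0, limma-voom (limma 3.58.1), other filters and thresholds, a replicate block, thinning to the smallest total of 8034251 counts, removal of structural RNA genes, each library left out in turn, and for ratios another pseudocount and the median. The astrocyte markers without Gfap were added after the data were seen. Results of the list of OL markers as a whole are not reported here.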

Additional observations from a re-analysis of the deposited data

Results flagged for a closer look

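Among 54 groups of 6 values examined, 5 held a library far from the other 5 of its group, where chance gives about 2.7. Of these, 4 were siNC replicate 2. In that library Mt2 was at 482 CPM, below the other siNC libraries, which started at 543.7 CPM. Slc30a10 was at 1.22 CPM there, above the others, and Slc39a10 at 104.9 CPM, also above them. Slc39a9 was at 24.9 CPM in siNC replicate 2, below the others. The fifth was siEgr2 replicate 4, where Slc39a9 was at 33.9 CPM while the other siEgr2 libraries started at 81.0 CPM. Without siNC replicate 2, the log2 fold change of Slc30a10 was 0.16 and that of Slc39a10 was 0.056, neither called. Without siEgr2 replicate 4, that of Slc39a9 was 1.56.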

How the results depend on the processing

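Mt1, Mt2, Mt3 and Slc39a12 were called lower in all 22 alternatives of the fit, and Slc39a8 in the 20 in which it was tested. It had too few counts after thinning and under the filter of 1 CPM in 6 libraries, where 4 genes were called. The lowest and highest log2 fold changes over these alternatives were -0.94 and -0.72 for Mt1, -1.02 and -0.80 for Mt2, -0.72 and -0.51 for Mt3, -2.85 and -2.01 for Slc39a8, and -0.77 and -0.52 for Slc39a12. With a log2 fold change over 1 required, 1 of the 10 genes was called, and 2 with glmTreat against 0.5. No share of all tested genes is given at these thresholds, so these counts are no result about the 10 genes as a set. With library size alone as the scale, the median of all tested genes moved to -0.18, 88.0% of called genes were lower against 65.9% with TMM, 24 genes of the lists were called against 15, and Slc39a10 was at -0.16 (adjusted p = 0.0369, edgeR). Without a filter, Slc39a10 was at -0.024.

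With single libraries left out, Slc39a10 ranged from -0.0076 to 0.056 and Slc30a10 from -0.45 to 0.16. The same runs gave -0.072 to 0.086 for the ratio of Slc39a12 to the astrocyte markers, -0.18 to -0.11 for Mt1 and 0.041 to 0.097 for Mt3. Mt1 over the markers had an adjusted p of 0.0275 (exact permutation test) without siEgr2 replicate 1 or 2, and Mt3 over the markers one of 0.0475 without siEgr2 replicate 4. Against the markers without Gfap, Mt3 was higher by 0.12 (adjusted p = 0.0325, exact permutation test). The cause of these changes was not tested.

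Libraries with the same number correlated between -0.021 and 0.052 in their deviations from the group means, and 2 of 6 correlated best with their own number. With a replicate block, 1124 genes were called against 1281, 5 of them among the 10 zinc genes. Swapping groups within the pairing left Mt2 over the astrocyte markers at -0.24 with an adjusted p of 0.117 (exact permutation test). Among the 10 zinc genes, depth limits Slc30a10 and Slc39a8 most, with at most 24 and 9 counts per siEgr2 library.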
